A study of Gossypium barbadense and Gossypium hirsutum with 8 samples.

Results

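The fiber transcript levels of Gossypium barbadense, the extra-long-staple cotton, were compared with those of Gossypium hirsutum, upland cotton, at 10 days post anthesis (DPA). Each species had 1 library at this stage, so 2 of the 8 libraries of the series form the comparison. The other libraries are from the same species at 5, 15 and 20 DPA and were used to ask whether a difference was already there at 5 DPA and at which stage a gene was highest. The labels give the tissue as fiber and name neither a cultivar nor a number of plants. No treatment is given for either species. The last stage is 20 DPA in the source names, whereas the titles carry 25.

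A cotton fiber is a single cell of the seed coat that grows out at flowering, elongates for weeks without dividing, and then fills with cellulose. Around 10 DPA the cell is in its rapid elongation, when turgor, loosening of the primary wall and delivery of new membrane and wall material set the growth of the tip and flanks. Both species are tetraploids with an A and a D subgenome, so most genes have a copy on each.

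The values are RPKM, read numbers corrected for gene length and library size, as deposited for 59006 gene identifiers of the G. hirsutum form. The identifiers carry no gene names: 0 of them matched the 74561 genes of the G. barbadense reference table. Genes are therefore given by identifier and chromosome, with no role, and marker genes of the fiber or of neighbouring tissues could not be checked. With 1 library per species there is no replicate error, no test was made, and every difference below is a ratio between these libraries. The species and the plants sampled cannot be told apart, and neither can fewer cells of a type and less RNA per cell.

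The G. barbadense library at 10 DPA summed to 503585 RPKM and the G. hirsutum library to 326872 RPKM, a ratio of 1.54. At 5 DPA the sums were 258680 RPKM in G. barbadense, against 138198 RPKM in G. hirsutum, a ratio of 1.87. The steps between low values showed that a read was worth nearly the same in both libraries of a stage, 1.02 times as much in G. barbadense as in G. hirsutum at 10 DPA and 0.976 times as much at 5 DPA. The sums thus differed more than the values of a read did. Values are given as deposited and as scaled RPKM, in which each column was divided by its sum and multiplied by 300000. At a median of 0.17 RPKM per read, 5 RPKM rests on about 29.4 reads, and values under 1 RPKM on few.

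At 10 DPA most genes stood within a few-fold of each other in the 2 species, and more genes were far higher than far lower in G. barbadense. Of 9357 genes reaching 5 scaled RPKM in either library, 4810 (51.4%) were within 2-fold. G. barbadense had the higher level by 4-fold or more in 1021 genes (10.9%) and the lower by 4-fold or more in 520 (5.56%), on the log2(scaled RPKM + 1) scale. The higher genes had a median log2 ratio of 2.47 and the lower genes of -2.56. Higher genes were thus 66.3% of those 4-fold apart. That share was 88.7% as deposited, where 2657 genes (21.4% of 12434) were higher and 337 (2.71%) lower, and 53.5% after quantile normalization. The middle gene was 0.98 higher in G. barbadense as deposited and 0.19 higher on the scaled values (log2). All 1021 higher genes were also 4-fold higher as deposited, which the larger G. barbadense sum makes certain. Of the 520 lower genes, 330 were also 4-fold lower as deposited.

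**Figure D1:**
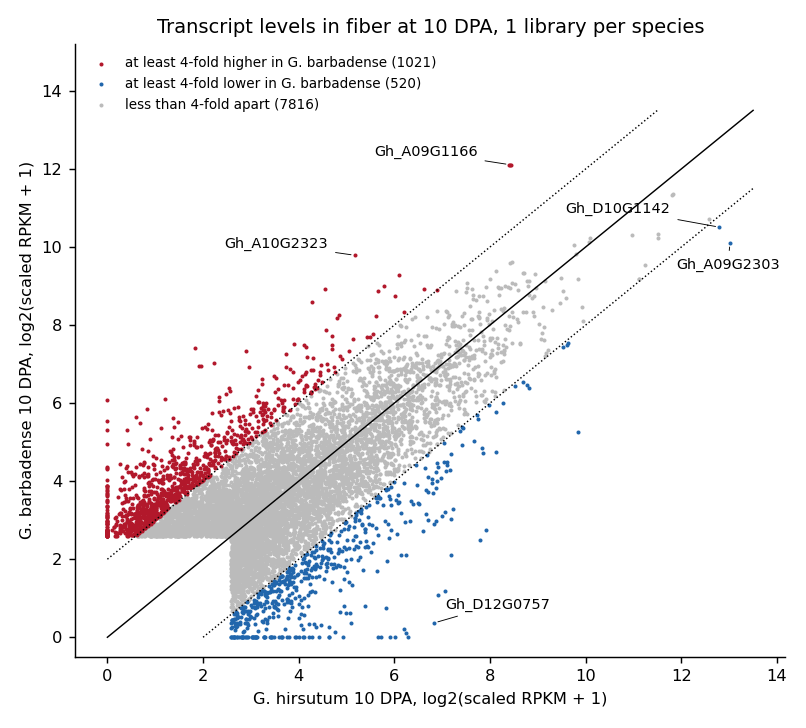
Levels of the 9357 genes reaching 5 scaled RPKM in either 10 DPA library, as log2(scaled RPKM + 1), with G. barbadense on the vertical and G. hirsutum on the horizontal axis; the solid line marks equal levels and the dotted lines 4-fold. The 1021 red genes lie above the upper dotted line and the 520 blue genes below the lower one, and the named genes sit at both the abundant and the low end.

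The share of 4-fold differences varied with abundance. Among genes whose higher library stood at 5 to 10 scaled RPKM, 10.1% were 4-fold higher in G. barbadense and 3.83% lower. Among the 638 genes from 100 to 1000 scaled RPKM, 52 (8.15%) were 4-fold higher and 54 (8.46%) lower. The excess towards G. barbadense was thus seen among genes of low and middle level and not among those of 100 to 1000 scaled RPKM. As deposited it was present in that class too, with 18.9% of genes higher and 3.51% lower.

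The species shared many of their most abundant transcripts. Of the 100 most abundant genes in each library, 59 were in both lists. In the 141 genes of the combined lists the median log2 ratio was -0.03, 75 were within 2-fold, 15 were 4-fold or more above G. hirsutum in G. barbadense and 11 were 4-fold or more below. The 15 genes are a share of this list near the 10.9% of all genes, and 5.56% of all genes were 4-fold lower. As deposited 21 of the list were above and 2 below. Gh_D04G0335 on chromosome D04 stood at 1996 RPKM in G. barbadense, against 1192 RPKM in G. hirsutum, or 1189 scaled RPKM in G. barbadense, against 1094 in G. hirsutum. Gh_A05G3272 on A05 stood at 1881 RPKM in G. barbadense, against 1167 RPKM in G. hirsutum, or 1120 scaled RPKM in G. barbadense, against 1071 in G. hirsutum. Gh_D04G0335 thus differed 1.09-fold after scaling. The genes were less alike at 5 DPA, where Gh_D04G0335 stood at 2105 RPKM in G. barbadense, against 512 RPKM in G. hirsutum, or 2441 scaled RPKM in G. barbadense, against 1112 in G. hirsutum.

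The largest excess of G. barbadense in scaled RPKM was in near-equal identifiers on the chromosomes numbered 09. Gh_A09G1166 on A09 stood at 7412 RPKM in G. barbadense, against 368 RPKM in G. hirsutum, or 4416 scaled RPKM in G. barbadense, against 338 in G. hirsutum. This is 1.47% of the summed RPKM in G. barbadense, against 0.113% in G. hirsutum. It was the most abundant identifier of the G. barbadense library and the 72nd in G. hirsutum. Gh_D09G1172 on D09 stood at 7351 RPKM in G. barbadense, against 370 RPKM in G. hirsutum, and lay within 10% of Gh_A09G1166 in all 8 libraries. Whether reads were shared between these identifiers is not given in the sources used here, so their levels are uncertain one by one. The gap was equally wide at 5 DPA: Gh_A09G1166 was 13.1-fold higher in G. barbadense at 10 DPA and 13.0-fold higher at 5 DPA in scaled RPKM. At 20 DPA its log2 ratio was 1.71, against 3.70 at 10 DPA.

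In the other direction, the largest differences in scaled RPKM were those of Gh_A09G2303 and Gh_D10G1142. Gh_A09G2303 on A09 stood at 1828 RPKM in G. barbadense, against 9029 RPKM in G. hirsutum, or 1089 scaled RPKM in G. barbadense, against 8287 in G. hirsutum, and was the most abundant identifier of the G. hirsutum library. Its gap was wider at 10 DPA than at 5 DPA, with log2 ratios of -2.93 and -1.90. Gh_D10G1142 on D10 stood at 2443 RPKM in G. barbadense, against 7714 RPKM in G. hirsutum, or 1455 scaled RPKM in G. barbadense, against 7080 in G. hirsutum. Its gap was narrower at 10 DPA: its log2 ratio was -2.28 at 10 DPA and -4.87 at 5 DPA. At 10 DPA it passed 4-fold on the scaled values only narrowly, and its log2 ratio was -1.66 as deposited and -1.14 after quantile normalization.

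The widest ratios among genes reaching 50 scaled RPKM set a gene of one library against near silence in the other. Gh_D04G0445 on D04 stood at 111 RPKM (66.4 scaled) in G. barbadense and was listed at 0 in G. hirsutum. Gh_A07G1106 on A07 stood at 284 RPKM (169 scaled) in G. barbadense, against 2.81 RPKM (2.58 scaled) in G. hirsutum, a log2 ratio of 5.57. Neither gene showed this difference at 5 DPA, where both were higher in G. hirsutum: Gh_D04G0445 was listed at 0 in G. barbadense and stood at 17.2 RPKM in G. hirsutum, and Gh_A07G1106 stood at 21.9 RPKM in G. barbadense, against 68.4 RPKM in G. hirsutum. Lower in G. barbadense were Gh_D12G0757 on D12, with 0.49 RPKM in G. barbadense, against 123 RPKM (113 scaled) in G. hirsutum, and Gh_A02G0236 on A02, listed at 0 in G. barbadense, against 83.6 RPKM (76.7 scaled) in G. hirsutum. Both of these differences were in the same direction at 5 DPA, at 0.12 RPKM in G. barbadense, against 5.47 RPKM in G. hirsutum for Gh_D12G0757. Gh_A02G0236 was listed at 0 in G. barbadense and stood at 7.92 RPKM in G. hirsutum at 5 DPA.

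Peak-elongation genes were taken as those with their highest scaled RPKM of the 4 stages at 10 DPA in both species. There were 1481 among the 9357 genes, and their share of the summed RPKM was 16.3% in G. barbadense, against 11.7% in G. hirsutum at 10 DPA. At 5 DPA they took 7.91% in G. barbadense, against 5.98% in G. hirsutum. The G. barbadense level was the higher one at 10 DPA for 1123 of them (75.8%), with a median log2 ratio of 0.96. The other 7876 genes had a median of 0.04. At least 4-fold higher in G. barbadense were 250 (16.9%, where 10.9% of all genes were), and at least 4-fold lower 27 (1.82%, where 5.56% of all genes were). The rule that picks these genes uses the values of all 4 stages, so these counts are a description. In the 5 DPA libraries the same genes had a median log2 ratio of 0.77, against 0.16 in the other genes. The rule bears on that too, since it keeps each 5 DPA level under the 10 DPA level. The 5 DPA median was 1.19 for genes highest at 10 DPA in G. hirsutum only and -0.42 for G. barbadense only. The 0.77 therefore cannot be separated from the rule.

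**Figure D2:**
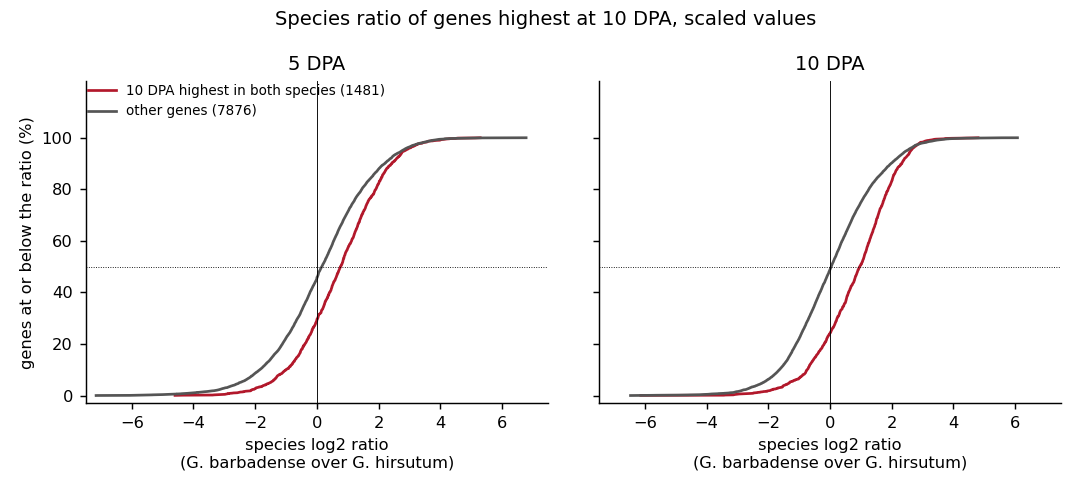
Cumulative share of genes by species log2 ratio (G. barbadense over G. hirsutum, scaled values) at 5 DPA on the left and 10 DPA on the right, for the 1481 genes highest at 10 DPA in both species (red) and the other 7876 genes (grey). The red curve lies to the right of the grey one at both stages, crossing 50% at 0.77 and 0.96. The values of both stages were used in picking the red genes.

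How many genes count as peak-elongation genes hung on the scaling, on 1 library and on the margin asked of the maximum. As deposited, 5355 of 12434 genes were highest at 10 DPA in both species, 1307 (24.4%) of them 4-fold higher in G. barbadense and 34 lower. The G. hirsutum 5 DPA library has the lowest sum, and scaling multiplies it by 2.17. When it was left out of the peak rule, 2452 genes were picked, 501 of them 4-fold higher and 31 lower. Under each of these rules more peak-elongation genes were 4-fold higher than 4-fold lower in G. barbadense.

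The most abundant peak-elongation genes that were 4-fold apart lay on the chromosomes numbered 10 in the higher direction. Gh_A10G2323 on A10 had G. barbadense levels of 72.3, 1482, 796 and 1.11 RPKM at 5, 10, 15 and 20 DPA and G. hirsutum levels of 2.77, 38.1, 9.68 and 4.67 RPKM. In scaled RPKM it was at 883 in G. barbadense, against 35.0 in G. hirsutum at 10 DPA, a 25.3-fold difference, and ranked 16th in the first library and 1461st in the second. Both species had their maximum at 10 DPA, and the gap was already 13.9-fold at 5 DPA. Gh_D10G1145 on D10 had G. barbadense levels of 83.1, 807, 474 and 2.59 RPKM and G. hirsutum levels of 1.49, 24.4, 7.83 and 6.82 RPKM. It was 21.5-fold higher in G. barbadense at 10 DPA and 29.8-fold at 5 DPA in scaled RPKM. At 20 DPA both genes were lower in G. barbadense than in G. hirsutum, with log2 ratios of -1.49 and -1.21.

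In the other direction 14 peak-elongation genes were at least 4-fold lower in G. barbadense on both scales, and the most abundant of these were Gh_D08G1029 and Gh_A09G0125. Gh_D08G1029 on D08 had G. barbadense levels of 6.23, 16.3, 10.9 and 0.79 RPKM and G. hirsutum levels of 9.12, 98.0, 36.6 and 50.7 RPKM. Its gap was wider at 10 DPA, at a log2 ratio of -3.09, than at 5 DPA, at -1.34. Gh_A09G0125 on A09 had G. barbadense levels of 6.64, 23.3, 17.2 and 10.3 RPKM and G. hirsutum levels of 10.1, 96.0, 20.8 and 35.0 RPKM, with log2 ratios of -2.59 at 10 DPA and -1.40 at 5 DPA. Both maxima at 10 DPA were flatter in G. barbadense than in G. hirsutum.

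A difference at 10 DPA could be one that was there at 5 DPA or one that appeared in between. Of the 1021 genes higher at 10 DPA, 351 (34.4%) were 4-fold or more higher at 5 DPA too, 285 (27.9%) were 2- to 4-fold higher, 304 (29.8%) were within 2-fold, 39 were 2- to 4-fold lower and 42 were at least 4-fold lower. Over all 9357 genes 13.0% were at least 4-fold higher at 5 DPA. Of the 520 genes lower at 10 DPA, 119 (22.9%) were at least 4-fold lower at 5 DPA too, where 7.79% of all 9357 genes were. A further 97 were 2- to 4-fold lower, 183 (35.2%) were within 2-fold, 59 were 2- to 4-fold higher and 62 (11.9%) were at least 4-fold higher. The sign was thus the same for 855 higher genes (83.7%) and 290 lower genes (55.8%) at 5 DPA. Of all 9357 genes 56.7% were higher and 42.8% lower in G. barbadense at 5 DPA. As deposited the sign was the same for 88.1% of higher genes and 49.3% of lower ones, where 76.0% of all genes were higher and 23.0% lower.

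**Figure D3:**
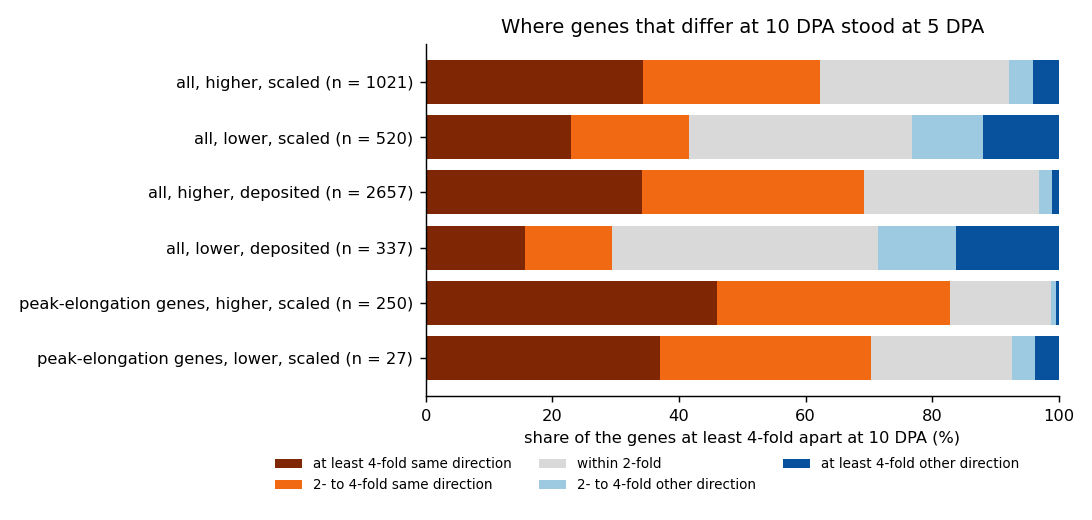
Shares (%) of the genes at least 4-fold higher or lower in G. barbadense at 10 DPA that fell in each class of species ratio at 5 DPA, on scaled and deposited values and for the peak-elongation genes. The 4-fold same-direction class makes up 34.4% for 1021 higher genes and 22.9% for 520 lower ones on scaled values, and 46.0% of the 250 higher peak-elongation genes.

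Many genes were too low at 5 DPA to show such a ratio. Of the higher genes 720 reached 5 scaled RPKM in either library at 5 DPA, and 319 (44.3%) of those were 4-fold higher there, against 17.8% of the 11357 genes reaching that level at 5 DPA. Of the lower genes 367 reached it and 106 (28.9%) were 4-fold lower, against 11.6%. As deposited, 787 of 1300 such higher genes (60.5%) were 4-fold higher at 5 DPA, against 33.2% of all genes reaching 5 RPKM there, and 44 of 184 lower genes (23.9%) were 4-fold lower, against 4.53%. Read the other way, of 2017 genes 4-fold higher at 5 DPA, 319 (15.8%) were 4-fold higher at 10 DPA. Of all 11357 genes reaching 5 scaled RPKM at 5 DPA, 720 were. Of 1315 genes 4-fold lower at 5 DPA, 106 (8.06%) were 4-fold lower at 10 DPA, where 367 of the 11357 were. As deposited, 787 of 2890 higher genes (27.2%) were 4-fold higher at 10 DPA, where 1300 of all 8717 genes reaching 5 RPKM at 5 DPA were. For the lower genes the numbers were 44 of 395 (11.1%) and 184 of 8717. On both scales most of the 5 DPA differences were thus under 4-fold at 10 DPA or below 5 RPKM.

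Most of the 4-fold differences of peak-elongation genes were present, at 2-fold or more, at 5 DPA. Of the 250 higher ones, 115 (46.0%) were at least 4-fold higher and 92 (36.8%) 2- to 4-fold higher at 5 DPA, and 240 (96.0%) had the same sign. At 5 DPA 17.8% of the 1481 peak-elongation genes and 13.0% of all 9357 genes were at least 4-fold higher, and 70.4% and 56.7% were higher at all. The shares at 2-fold or more were not counted for these backgrounds. Their median log2 ratios at 5 DPA were 0.77 for the 1481 and 0.27 for all 9357 genes. Of the 27 lower ones, 10 were at least 4-fold lower and 9 2- to 4-fold lower at 5 DPA. There 2.63% of the 1481 and 7.79% of all 9357 genes were at least 4-fold lower. Since the peak rule keeps the 5 DPA level of each species under its 10 DPA level, it also bears on these shares. At 15 DPA 167 of the 250 (66.8%) were at least 4-fold higher, against 18.2% of the genes reaching 5 scaled RPKM there. At 20 DPA 2 were, but the median level of the 250 there was 0.25 scaled RPKM in G. barbadense, against 0.21 in G. hirsutum. At such levels a 4-fold ratio cannot show on this scale, so the count does not tell whether the difference was lost.

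The clearest genes already apart at 5 DPA were, beside Gh_D10G1145, Gh_A06G0930 on A06 in the higher direction and Gh_A13G2209 and Gh_D02G0342 in the lower. They come from 340 genes 4-fold higher and 52 genes 4-fold lower at both 5 and 10 DPA on both scales. Gh_A06G0930 stood at 34.0 and 68.2 scaled RPKM at 5 and 10 DPA in G. barbadense, against 0.63 and 1.29 in G. hirsutum. Gh_D02G0342 on D02 was listed at 0 and 0.54 scaled RPKM in G. barbadense and stood at 32.4 and 30.7 in G. hirsutum. Gh_A13G2209 on A13 was listed at 0 at every stage in G. barbadense and stood at 40.8 and 51.6 scaled RPKM in G. hirsutum at 5 and 10 DPA. In the 340 higher genes the median log2 ratio was 2.77 at 5 DPA and 2.49 at 10 DPA, and in the 52 lower genes it was -3.76 and -3.28. The genes were chosen on the ratios of both stages, so these medians describe the choice.

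For genes alike at 5 DPA and apart at 10 DPA, the choice itself makes the change between the stages differ between the species. The counts of such changes are therefore a description. This set held 43 genes higher and 20 genes lower at 10 DPA on both scales. All were at 5 scaled RPKM or more in both 5 DPA libraries. They were within 0.5 of equal there on the log2 scale, a condition set on the scaled values only. On scaled values 25 of the 43 were at least 2-fold higher at 10 than at 5 DPA in G. barbadense. In G. hirsutum 23 were at least 2-fold lower at 10 than at 5 DPA. Over all 9357 genes the median log2 change was 0.18 in G. barbadense, against 0.19 in G. hirsutum. The scaling bears on such changes, as shown by all genes 4-fold higher at 10 DPA and within 2-fold at 5 DPA. Their median log2 change was 1.40 in G. barbadense, against -0.85 in G. hirsutum. As deposited it was 2.16 in G. barbadense, against -0.0099 in G. hirsutum. Gh_Sca115726G01, on an unplaced scaffold, stood at 243 and 181 scaled RPKM at 5 and 10 DPA in G. barbadense, against 325 and 14.0 in G. hirsutum, so the 10 DPA level was far under the 5 DPA level in G. hirsutum only. Gh_A03G0403 on A03 stood at 17.8 and 52.9 scaled RPKM in G. barbadense, against 15.7 and 3.52 in G. hirsutum, above its 5 DPA level in G. barbadense and below it in G. hirsutum. In RPKM as deposited the 10 DPA values were 304 in G. barbadense, against 15.3 in G. hirsutum for Gh_Sca115726G01, and 88.7 in G. barbadense, against 3.84 in G. hirsutum for Gh_A03G0403. The deposited 5 DPA values of Gh_A03G0403 were 15.3 RPKM in G. barbadense, against 7.23 RPKM in G. hirsutum. That is a log2 ratio of 0.99, so this gene was alike at 5 DPA on scaled values only.

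Of the 20 genes in that set lower at 10 DPA, 19 were at least 2-fold lower at 10 than at 5 DPA in G. barbadense on scaled values. In G. hirsutum 10 were at least 2-fold higher at 10 than at 5 DPA. The scaling bears on these changes too. For all genes 4-fold lower at 10 DPA and within 2-fold at 5 DPA, the median log2 change was -0.98 in G. barbadense, against 1.62 in G. hirsutum. As deposited it was 0 in G. barbadense, against 2.48 in G. hirsutum. Gh_A12G1238 on A12 stood at 19.4 and 7.24 scaled RPKM at 5 and 10 DPA in G. barbadense, against 23.5 and 143 in G. hirsutum. Its G. hirsutum level was highest at 10 DPA and uneven after it, with 7.21 scaled RPKM at 15 DPA and 42.0 at 20 DPA. At 20 DPA G. barbadense stood at 57.3 scaled RPKM. Each of these levels rests on 1 library. Gh_D03G1268 on D03 stood at 25.7 and 6.54 scaled RPKM in G. barbadense, against 22.5 and 113 in G. hirsutum, and was still apart at 15 DPA (log2 ratio -3.31). At 10 DPA the deposited values were 12.2 RPKM in G. barbadense, against 156 RPKM in G. hirsutum for Gh_A12G1238, and 11.0 RPKM in G. barbadense, against 123 RPKM in G. hirsutum for Gh_D03G1268.

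Some genes were 4-fold apart in opposite directions at the 2 stages. They were no larger a share of the genes apart at 10 DPA than of all genes: 4.11% of the 1021 higher genes were 4-fold lower at 5 DPA, against 7.79% of all 9357 genes, and 11.9% of the 520 lower genes were 4-fold higher, against 13.0%. On both scales 20 genes were lower at 5 DPA and higher at 10 DPA in G. barbadense, and 40 genes were higher at 5 DPA and lower at 10 DPA. In the 20 genes the median scaled RPKM at 5, 10 and 15 DPA was 0.36, 37.1 and 44.2 in G. barbadense, against 29.2, 2.18 and 1.74 in G. hirsutum. All 20 were at least 2-fold higher at 10 than at 5 DPA in G. barbadense, and 19 were at least 2-fold lower in G. hirsutum. The genes were chosen on their 5 and 10 DPA ratios, so these values describe the choice, and the 15 DPA values alone were not used in it. In the 40 genes the medians were 15.3, 1.56 and 4.22 in G. barbadense, against 1.5, 13.6 and 6.12 in G. hirsutum. Of the 40, 37 were at least 2-fold lower at 10 than at 5 DPA in G. barbadense, and 37 were at least 2-fold higher in G. hirsutum.

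**Figure D4:**
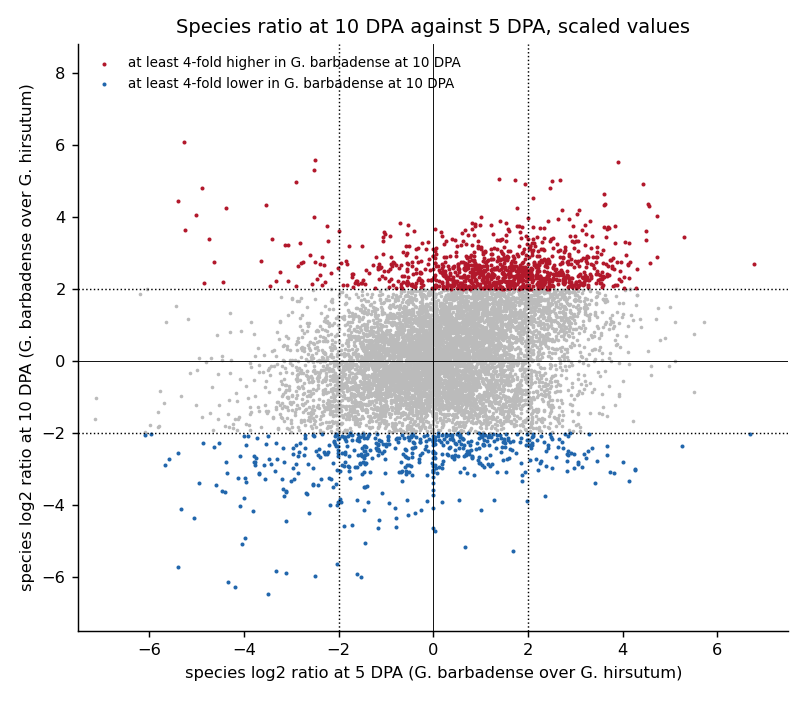
Species log2 ratio (G. barbadense over G. hirsutum, scaled values) at 10 DPA on the vertical axis against 5 DPA on the horizontal axis for 9357 genes; dotted lines mark 4-fold. Of the 1021 red genes 351 lie right of the right dotted line, and 62 of the 520 blue genes lie right of it as well, in the lower right corner.

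Genes seen in a single species at 10 DPA were few. Of 7731 genes at 5 scaled RPKM or more in G. barbadense, 82 were listed at 0 in G. hirsutum. Of 6790 such genes in G. hirsutum, 63 were listed at 0 in G. barbadense. In RPKM as deposited the numbers were 223 and 69. For 36 of the 82 and 37 of the 63 the other species was listed at 0 at 5 DPA too. In 18 of each of these the gene also stood at 5 scaled RPKM or more at 5 DPA. Over all 59006 identifiers, 35735 were above 0 in G. hirsutum at 5 DPA and 45966 in G. barbadense. A value of 0 was thus commoner in G. hirsutum, so the 36 and the 37 stand against unlike backgrounds. Gh_A05G2550 on A05 stood at 12.1, 75.9, 16.7 and 0 RPKM from 5 to 20 DPA in G. barbadense and was listed at 0 in every G. hirsutum library. Gh_A04G0694 on A04 stood at 9.78, 32.8, 15.7 and 3.74 RPKM from 5 to 20 DPA in G. barbadense and was listed at 0 in G. hirsutum before 20 DPA, where it stood at 1.21 RPKM. It lay within 10% of 2 other identifiers in the 3 libraries where it reached 5 RPKM, so its level is as uncertain as that of Gh_A09G1166. Gh_A02G0236 and Gh_A13G2209, given above, had the highest 10 DPA levels of the 18 genes in the other direction. The identifiers have the G. hirsutum form, so a G. barbadense value of 0 may also stand for reads that were not assigned.

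The genes 4-fold apart at 10 DPA were spread over both subgenomes. Of the genes reaching 5 scaled RPKM, those higher in G. barbadense made up 10.1% on A and 10.8% on D chromosomes, and 5.64% on A and 5.35% on D chromosomes were lower. Unplaced scaffolds held 87 higher genes among 430 (20.2%) and D09 held 54 among 332 (16.3%), the largest shares on scaled values and as deposited (30.1% and 25.5%). The smallest share was that of D12, 27 among 358 (7.54%), on scaled values and that of A12 (18.2%) as deposited. Where the next identifier number on the chromosome was also among the genes reaching 5 scaled RPKM, it was 4-fold higher too for 29 of 155 higher genes (18.7%, where 10.9% of all genes were). For the lower genes this held for 11 of 68 (16.2%, where 5.56% of all genes were).

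The differences at 10 DPA were closer to those at 15 DPA than to those at 5 DPA. Of the 1021 higher genes 515 (50.4%) were at least 4-fold higher at 15 DPA, where 18.2% of the genes reaching 5 scaled RPKM were. At 20 DPA 23 (2.25%) were, where 1.95% of the genes reaching that level were. Of the 520 lower genes 206 (39.6%) were at least 4-fold lower at 15 DPA, against 11.2% of the genes reaching the level. At 20 DPA 69 (13.3%) were, against 6.66%. The 1021 and 520 genes need not reach that level at the later stages, so the bases differ. A gene low in both libraries cannot show 4-fold on this scale. In the 340 higher genes 4-fold apart at 5 DPA too, the 20 DPA median was 0.45 scaled RPKM in G. barbadense, against 0.42 in G. hirsutum. As deposited, 1228 of the 2657 higher genes (46.2%, against 26.1% of those reaching 5 RPKM) were 4-fold higher at 15 DPA. At 20 DPA 44 (1.66%, against 2.27%) were. Of the 337 lower genes 109 (32.3%, against 5.71%) were 4-fold lower at 15 DPA and 53 (15.7%, against 6.06%) at 20 DPA. On scaled values 5 higher genes and 30 lower ones were 4-fold apart in the same direction at all 4 stages, and as deposited 14 higher and 17 lower. Over 7099 genes with a mean of at least 5 scaled RPKM, the species log2 ratio at 10 DPA had a Spearman's rho of 0.26 with that at 5 DPA, 0.64 with that at 15 DPA and 0.16 with that at 20 DPA. These correlations are across genes, which are not independent, and each stage rests on the same pair of libraries for all genes.

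**Figure D5:**
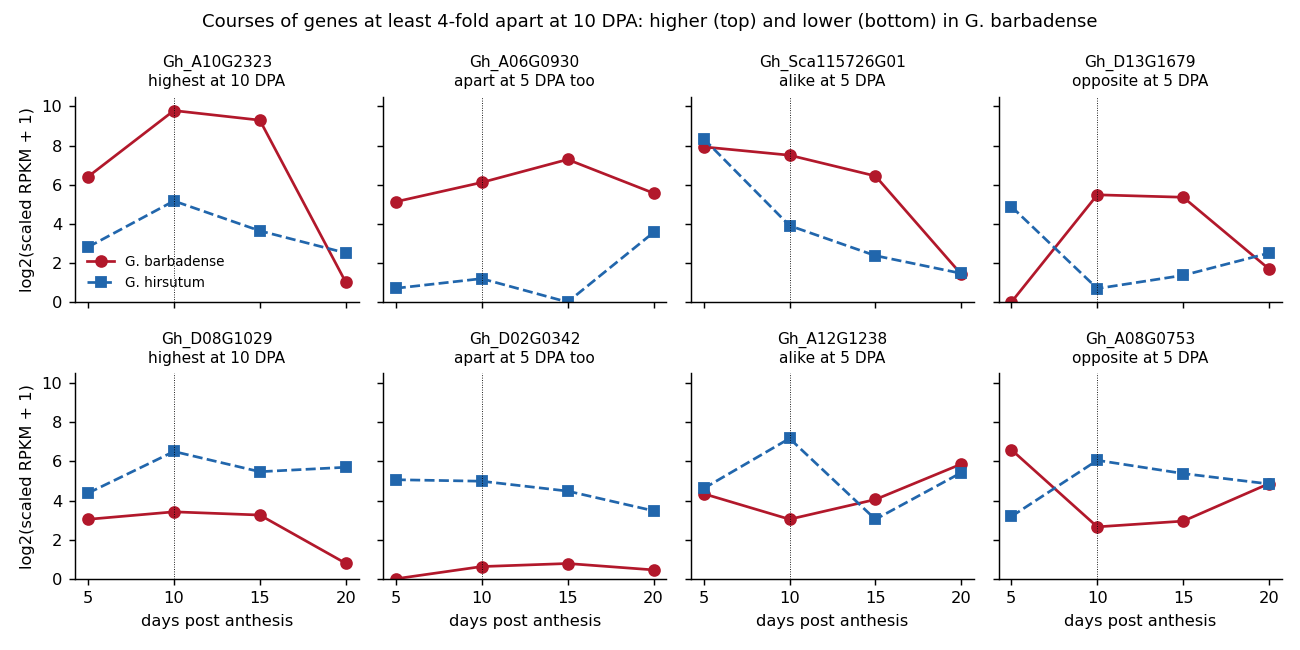
Courses of 8 named genes as log2(scaled RPKM + 1) against days post anthesis, with G. barbadense as red circles and G. hirsutum as blue squares; each point is 1 library, and the dotted line marks 10 DPA. The upper genes are higher and the lower genes are lower in G. barbadense at 10 DPA, and the columns show genes highest at 10 DPA in both species (Gh_A10G2323, Gh_D08G1029), far apart at 5 DPA (Gh_A06G0930, Gh_D02G0342), alike at 5 DPA (Gh_Sca115726G01, Gh_A12G1238) or apart in opposite directions (Gh_D13G1679, Gh_A08G0753).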

How the data were processed

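RNA of fibers was sequenced as 8 libraries, 1 per species and stage. The authors deposited RPKM with 2 decimals for 59006 genes. Cutadapt, Bowtie2 and edgeR are listed without versions in the submitters' processing notes, which do not say what each was used for. Not given in the sources used here are the genome build and annotation, how multi-mapping reads were counted, and which library size entered the RPKM. Columns were matched to samples by title; 0 other columns of samples are in the table.

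Each column was divided by its sum and multiplied by 300000. A gene entered a comparison at 5 or more in either library of that stage, and ratios were taken as log2(value + 1), which understates the difference of low genes. Where a plain fold is printed, no pseudocount was added. No test was made, since each species had 1 library at 10 DPA. The value of a read was found from low values in whole steps within 0.2 reads (43.5% of 33576 genes, against 8.15% after a random factor on each value); depth is known only through it.

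Genes were named by rule, 2 per direction: the largest differences and ratios, the most abundant peak-elongation genes, and the largest ratios in the groups apart, alike or opposite at 5 DPA. The rules were set with earlier results of these data known. Scalings, a pseudocount of 0.1, levels of 1 and 20 and folds of 2 and 8 were tried. The code that counts the calls was tested on simulated data with known differences, which says nothing of replicate error. Python 3.11.15, pandas 2.3.3 and numpy 2.4.6 were used. No gene list was tested and no sequence is given, as the identifiers have no annotation here.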

Additional observations from a re-analysis of the deposited data

Results flagged for a closer look

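Genes that were 4-fold apart in opposite directions at 5 and 10 DPA are given here because the sign of the species difference changed between the stages. They were picked as the largest of their kind, and such genes were no larger a share of those apart at 10 DPA (4.11% of the higher and 11.9% of the lower) than of all genes (7.79% and 13.0%). Each value is a ratio of 1 library to 1 library, and the difference between the stages was not tested. Gh_D04G0445 had a log2 ratio of 6.07 at 10 DPA and -5.26 at 5 DPA (G. barbadense over G. hirsutum, scaled values), and was listed at 0 in G. hirsutum at 10 DPA and in G. barbadense at 5 DPA, so the size of both ratios hangs on the pseudocount. Gh_D13G1679 on chromosome D13 had log2 ratios of 4.79 at 10 DPA and -4.88 at 5 DPA. It had G. barbadense levels of 0, 73.3, 50.7 and 2.40 RPKM at 5, 10, 15 and 20 DPA and G. hirsutum levels of 13.1, 0.67, 1.33 and 4.65 RPKM. Gh_A08G0753 on A08 had log2 ratios of -3.40 at 10 DPA and 3.41 at 5 DPA, with G. barbadense levels of 82.5, 8.89, 8.51 and 30.5 RPKM and G. hirsutum levels of 3.73, 71.4, 34.2 and 27.6 RPKM. Gh_D03G0219 on D03 had log2 ratios of -3.33 at 10 DPA and 4.14 at 5 DPA. The species stood close by 20 DPA, with 24.4 RPKM in G. barbadense, against 20.1 RPKM in G. hirsutum.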

How the results depend on the processing

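No paired analysis was possible because each species has 1 library per stage and no test was made, and for the same reason no library of the 10 DPA contrast could be left out. Over 26 named genes and 5 other scalings or pseudocounts, 0 of the values beyond 4-fold changed direction. Of the ratios, 128 of 130 at 10 DPA and 124 of 130 at 5 DPA kept their side of 4-fold. The genes were named as the largest or most abundant of their kind. Several kinds also had to be 4-fold apart on both the scaled and the deposited values. Much of this steadiness was thus fixed by the choice and says little of other genes. Of 99 counts and medians recomputed, 42 stayed within 1.5 times, or within 0.1 for the median. The rest follow, in the order higher then lower in G. barbadense. All genes 4-fold apart at 10 DPA numbered 2657 and 337 as deposited, 336 and 217 at a level of 20, 2704 and 1843 at 2-fold, and 188 and 127 at 8-fold. Those already apart at 5 DPA numbered 906 and 53 as deposited, 659 and 217 with a pseudocount of 0.1, 131 and 56 at a level of 20, 1417 and 627 at 2-fold, and 35 and 32 at 8-fold; the higher ones were 215 with median-of-ratios factors, and the lower ones 180 with a sum that leaves out the 100 most abundant genes. Peak-elongation genes 4-fold apart numbered 729 and 101 at 2-fold, 26 and 7 at 8-fold, and 112 and 16 when 10 DPA had to be at least 1.5-fold above every other stage; the higher ones were 1307 as deposited, 132 at a level of 20 and 501 without the G. hirsutum 5 DPA library, and the lower ones 14 with median-of-ratios factors. The 1.5-fold rule and the rule without the G. hirsutum 5 DPA library were chosen after seeing the data. Peak-elongation genes already apart at 5 DPA numbered 73 and 6 with median-of-ratios factors, 238 and 17 with a pseudocount of 0.1, 512 and 55 at 2-fold, and 7 and 2 at 8-fold; the higher ones were 554 as deposited, 64 at a level of 20 and 39 under the 1.5-fold rule, and the lower ones 6 with the sum that leaves out the 100 most abundant genes. Genes listed at 0 in the other species numbered 132 and 96 with that sum, 1272 and 443 at a level of 1, and 4 and 9 at a level of 20; those seen in G. barbadense were 223 as deposited and 42 with median-of-ratios factors. Quantile normalization leaves no 0 and was not used for them. The median log2 ratio was 0.98 as deposited, 0.067 with median-of-ratios factors, -0.019 after quantile normalization, 0.38 at a level of 1 and -0.0098 at a level of 20. Shared abundant genes were 13 of 20 and 662 of 1000. The causes were not tested. Levels under 1 RPKM rest on few reads, and counting error alone limits them.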

Other observations

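The abundant part of the G. barbadense 10 DPA library overlapped in similar numbers with the G. hirsutum libraries of 5 and 10 DPA. Of its 100 most abundant genes, 62, 59, 42 and 34 were among the 100 most abundant of G. hirsutum at 5, 10, 15 and 20 DPA. The 100 most abundant genes of G. hirsutum at 10 DPA shared 49, 59, 59 and 46 genes with those of G. barbadense at 5, 10, 15 and 20 DPA. Over 7099 genes the G. barbadense 10 DPA level had a Spearman's rho of 0.49 with the G. hirsutum level at 5 DPA, 0.62 at 10 DPA and 0.31 at 15 DPA. The 10 DPA level of G. hirsutum had a rho of 0.54, 0.62 and 0.64 with the G. barbadense levels at 5, 10 and 15 DPA. Each figure compares 2 single libraries, and the cause was not tested.

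Identifiers with close numbers on D10 differed between the species in opposite directions at 10 DPA. Gh_D10G1142 had a log2 ratio of -2.28, Gh_D10G1143 of 0.50 and Gh_D10G1145 of 4.37. Gh_D10G1143 stood at 194 scaled RPKM in G. barbadense, against 137 in G. hirsutum. On A10, Gh_A10G1332 had a log2 ratio of -1.88 and Gh_A10G1331 of -0.65. These identifiers were looked at after their values were seen.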
